A study of Homo sapiens with 12 samples.

Results

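The linker histones and histone variants of this series are 9 genes, taken from the 36502 rows of a gene count table by their symbols: H1F0, H1FX, H2AFX, H2AFZ, H2AFV, H2AFY, H2AFY2, H3F3A and H3F3B. All 9 passed the filter on low counts. H1F0 was picked on its values in these libraries, because it was low with Dam-LaminB1 in one clone and high in stressed libraries of the other, so those values are given as a description without a test. The other 8 were taken as its family.

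RNA was sequenced from HT1080, a human fibrosarcoma line, in 12 libraries, 2 for each of 6 groups, with 18774905 to 24827396 counted reads per library. A pair of clones carried an inducible m6A-Tracer, a fusion protein that binds DNA methylated on adenine: in the VP16 clone it was fused to the VP16 activation domain, and in the GFP clone it was the plain GFP fusion. VP16_tracer_Dam and GFP_tracer_Dam cells had 3 days of doxycycline at 50 ng/ml, then 24 h without it to induce the tracer, and 500 nM Shield1, which stabilises a Dam methyltransferase fused to lamin B1. VP16_tracer and GFP_tracer cells had the same schedule without Shield1, and VP16_uninduced and GFP_uninduced cells stayed in 50 ng/ml doxycycline for 4 days. Each construct was present in 1 clone, so clone and construct cannot be told apart, and neither can tracer expression and loss of doxycycline. The series' design text calls the second library of a group a biological replicate without naming a separate culture. The p-values therefore measure how far libraries of the same group differed, and that spread may be technical. In fits to all 12 libraries the spread of a gene is pooled over the 6 groups. A p-value or SE thus also reflects groups outside the comparison.

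Histone octamers wrap DNA into nucleosomes, and linker histones bind where the DNA enters and leaves them. Most histone genes are replication-dependent: their mRNA is made in S phase and ends in a stem-loop rather than a poly(A) tail. The 9 members are expressed outside S phase too and can give polyadenylated mRNA. Which share of a member's message has a poly(A) tail was not measured here. H1F0 encodes the linker histone of slowly dividing and differentiated cells, and H1FX encodes the linker histone H1X. H2AFX encodes H2A.X, which is phosphorylated around DNA breaks. H2AFZ and H2AFV encode the near-identical H2A.Z forms, placed at promoters by the SRCAP and p400 remodellers. H2AFY and H2AFY2 encode the macroH2A proteins, which carry a large C-terminal macrodomain and are known from inactive chromatin. H3F3A and H3F3B encode the same protein, H3.3, which HIRA and DAXX with ATRX deposit outside replication.

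Promoters of 4 members are shown, chosen after values and motifs were seen: H2AFX, H2AFZ and H3F3B, whose levels in the clones are compared below, and H2AFV, the paralog of H2AFZ. Each runs from 250 bases before to 50 bases after the RefSeq start site (GRCh38.p14), 5′ to 3′ on the gene's strand, with capitals on matches of 3 motifs on either strand, so that a match on the opposite strand shows as its reverse complement. The motifs are the CCAAT box, the TATAAA box and the GC box (GGGCGG). H2AFX lies at chr11:119095416-119095715, H2AFZ at chr4:99950226-99950525, H2AFV at chr7:44848038-44848337 and H3F3B at chr17:75779730-75780029, all on the minus strand.
H2AFX: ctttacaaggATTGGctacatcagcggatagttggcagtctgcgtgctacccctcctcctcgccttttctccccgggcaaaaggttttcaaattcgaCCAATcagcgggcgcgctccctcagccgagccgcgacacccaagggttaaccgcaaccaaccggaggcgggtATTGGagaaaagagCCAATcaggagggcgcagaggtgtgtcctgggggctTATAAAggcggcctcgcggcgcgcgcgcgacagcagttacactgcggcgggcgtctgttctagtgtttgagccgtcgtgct
H2AFZ: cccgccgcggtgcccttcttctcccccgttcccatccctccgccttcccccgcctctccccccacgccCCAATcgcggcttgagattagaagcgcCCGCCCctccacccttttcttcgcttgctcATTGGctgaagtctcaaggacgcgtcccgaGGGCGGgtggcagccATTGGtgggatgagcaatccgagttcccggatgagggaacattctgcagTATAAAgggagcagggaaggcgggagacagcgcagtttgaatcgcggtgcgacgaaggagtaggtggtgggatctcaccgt
H2AFV: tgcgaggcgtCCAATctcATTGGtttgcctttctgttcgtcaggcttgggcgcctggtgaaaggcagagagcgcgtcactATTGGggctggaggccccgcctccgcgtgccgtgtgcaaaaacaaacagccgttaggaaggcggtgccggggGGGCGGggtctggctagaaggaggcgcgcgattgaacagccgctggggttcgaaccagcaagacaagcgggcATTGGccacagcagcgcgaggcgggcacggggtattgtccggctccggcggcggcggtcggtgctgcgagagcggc
H3F3B: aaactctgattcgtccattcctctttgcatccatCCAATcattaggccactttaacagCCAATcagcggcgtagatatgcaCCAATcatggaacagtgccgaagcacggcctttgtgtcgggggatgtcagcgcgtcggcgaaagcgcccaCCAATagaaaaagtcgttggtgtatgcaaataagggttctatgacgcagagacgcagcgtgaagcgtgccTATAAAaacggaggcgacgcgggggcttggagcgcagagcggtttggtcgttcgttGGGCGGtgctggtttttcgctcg

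H2AFX, H2AFV and H3F3B each held 4 CCAAT matches on either strand, and 0.991% of 35116 RefSeq promoters of the same length held at least 4. H2AFZ held 3, and 3.26% of promoters held at least 3. Of the windows not shown, those of H1FX and H2AFY2 held 0, those of H2AFY 0 and 2, and those of H3F3A 0 or 1. CCAAT in any number was found in 34.6% of promoters. The H2AFY2 window held none of the 3 capitalised motifs. A TATAAA match stood at -31 from the start site in H2AFX, H2AFZ and H1FX and at -29 in H3F3B, against 11.5% of promoters with one anywhere in the window. CCAAT together with TATAAA was found in 4.58%. Both strands were searched for every motif. H1F0 had no window among these promoters, so it was not searched for any motif. Of 12 windows for the other 8 members (H3F3A has several start sites), none held the E2F-type motifs TTTGGCGC or TTTCGCGC, which 0.652% and 0.515% of promoters held. GGGCGG was in 45.0% of promoters, and AAACACA, the letters of the H1 box, was in 5.64% and among the members in windows of H3F3A. A match is a description of letters and not of a bound site.

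Before the comparisons, 2 properties of the libraries bear on every value. The libraries reuse 6 index sequences in 2 sets, with 1 library of each group in a set (index sets 1 and 2), and what a set stands for is not stated. The GFP_tracer_Dam and GFP_tracer libraries of index set 1 stood apart on the first principal component, at -87.0 and -78.2. DDIT3 (CHOP), an ATF4 stress target, had 77.4 and 93.6 CPM (the gene's share of all counts of its library, scaled) in those libraries and 4.74 to 8.12 CPM in the other 10. The summed level of 16 G1/S genes was 817 and 1326 CPM there, against 1980 to 2803 CPM elsewhere. Fibroblast-like markers were at 4625 to 8382 CPM summed, led by vimentin (VIM). Of 10 such markers listed, 8 were in the table and 7 had a mean above 1 CPM. THY1 was low, at 0.0886 to 0.814 CPM. Epithelial markers reached 15.8 CPM, blood markers 3.75 CPM and neural markers 9.96 CPM in sum. Values below are CPM scaled by TMM. Log2 differences come from edgeR's quasi-likelihood fit to all 12 libraries, with Benjamini-Hochberg adjustment over 17262 genes and a threshold of 0.05. This fit has no term for the index set, so its spread, SE and p-values also hold the difference between the sets. Fits with such a term are named as those with the index set as a block.

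**Figure D1:**
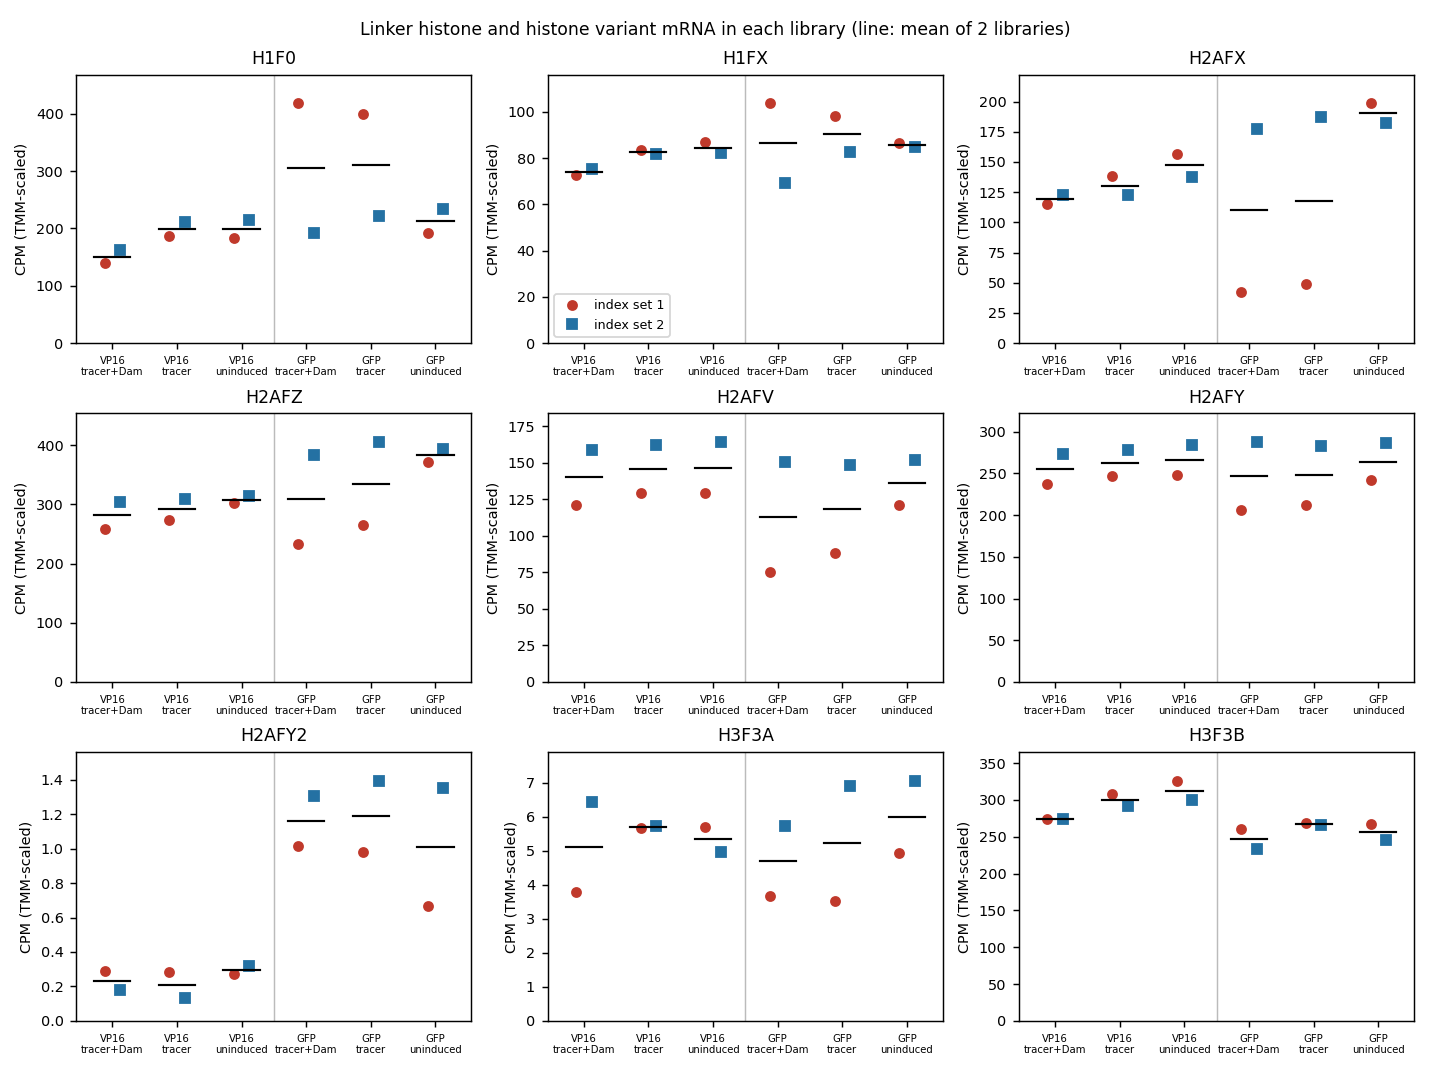
TMM-scaled CPM of the 9 genes in each library, by group, with index set 1 as circles and index set 2 as squares and a line at the mean of 2 libraries. In the GFP_tracer_Dam and GFP_tracer libraries of index set 1, H1F0 and H1FX are highest and H2AFX, H2AFV, H2AFY and H3F3A lowest. H2AFY2 is lower in all 6 VP16 libraries than in all 6 GFP libraries.

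Per kilobase of annotated exon, H2AFZ had the highest median level over the 12 libraries, at 133 CPM per kb. H1F0 followed at 86.1 and H2AFX at 85.5 CPM per kb, and their ranges over libraries overlapped (59.6 to 178 and 26.3 to 123 CPM per kb). H1FX had a median of 55.2, H3F3B of 44.2, H2AFV of 29.3 and H2AFY of 14.7 CPM per kb. H3F3A, at 1.81, and H2AFY2, at 0.249 CPM per kb, lay far below the rest, so the H3.3 message was counted almost wholly under H3F3B and the macroH2A message under H2AFY. H3F3A is uncertain: its span in the table lies within that listed for PARP1, processed copies such as H3F3AP4 had up to 52 counts, and how reads with several matches were counted is not given. H2AFY2 overlaps AIFM2 and H2AFY overlaps CTC-203F4.1, and whether strand was used is not stated.

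H1F0 (GRCh37, chromosome 22, 38201114 to 38203442) was the member with the widest spread among those above 10 CPM after H2AFX. It had 139.6 CPM in index set 1 and 162 CPM in index set 2 of VP16_tracer_Dam, against 186 and 211 CPM in VP16_tracer and 184 and 214 CPM in VP16_uninduced. The Dam-LaminB1 pair lay below the other 4 VP16 libraries. The difference to VP16_tracer was -0.40 ± 0.37 on the log2 scale (SE), with -0.41 for index set 1 and -0.38 for set 2. These are the values on which the gene was chosen. In RNA from bulk cells, fewer cells with the message and less of it per cell cannot be told apart. For the GFP clone the same addition of Shield1 gave 418 and 191 CPM in GFP_tracer_Dam, against 399 and 221 CPM in GFP_tracer, which is 0.07 on the log2 scale in index set 1 and -0.21 in set 2.

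In GFP_uninduced H1F0 stood at 192 and 233 CPM. The 418 and 399 CPM belong to the libraries with high DDIT3, and in index set 1 GFP_tracer was 1.05 above GFP_uninduced on the log2 scale, while in index set 2 it was at -0.08. The part of the stress and G1/S genes in this level was not tested. VP16_uninduced differed from GFP_uninduced by -0.10 ± 0.37 (log2, SE), or by -0.11 ± 0.14 without the 2 libraries that stood apart. The choice did not use these 2 groups. The SE with all 12 libraries pools the spread of libraries that it did use, so this too is a description. The VP16_tracer libraries were the baseline of the contrast used in the choice, so their difference to VP16_uninduced is a description. It was -0.0003 ± 0.37 with all 12 libraries (log2, SE). In a fit to the 6 VP16 libraries with the index set as a block it was 0.01 ± 0.04 (SE).

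The second linker histone, H1FX (GRCh37, chromosome 3, 129033615 to 129035120), varied little. It had 72.6 and 75.2 CPM in VP16_tracer_Dam, 83.6 and 81.7 CPM in VP16_tracer and 86.9 and 82.1 CPM in VP16_uninduced. In the GFP clone it had 104 and 69.1 CPM in GFP_tracer_Dam, 98.3 and 82.6 CPM in GFP_tracer and 86.5 and 84.7 CPM in GFP_uninduced. As for H1F0, its VP16_tracer_Dam pair lay below the other VP16 libraries, and H3F3B, given below, shared this. The highest H1FX levels were in the 2 libraries that stood apart. The Dam-LaminB1 difference in the VP16 clone was -0.16 ± 0.18 (SE, edgeR adjusted p = 1), and -0.16 ± 0.05 in the fit to the 6 VP16 libraries with the block (edgeR adjusted p = 0.254). It did not pass in either.

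Other linker histones and variants were measured beside them, and those named here were chosen after their values were seen. Of 18 other linker and variant genes listed, 10 were in the table and 5 passed the filter. HIST1H1C (H1.2) had 112 and 105 CPM in GFP_tracer_Dam and GFP_tracer of index set 1, against 70.2 to 84.2 CPM in the other 4 libraries of that set and 29.4 to 44.0 CPM in index set 2, so it was higher in all 6 libraries of set 1. HIST1H1E (H1.4) had 7.25 and 9.42 CPM in those 2 libraries, from 178 and 192 counts, against 0.754 to 1.56 CPM, from 17 to 33 counts, in the other 10. H2AFJ, an H2A variant, had 30.0 and 30.1 CPM, against 20.0 to 25.5 CPM. CENPA, the centromeric H3 variant, had 9.97 and 12.3 CPM, against 19.4 to 27.6 CPM. In the libraries with high DDIT3 and low G1/S genes, H1F0, H1FX, HIST1H1C, HIST1H1E and H2AFJ were highest. H2AFX, H2AFV, H2AFY, H3F3A and CENPA were lowest there. H2AFV had 75.4 and 88.2 CPM in those 2 libraries, against 121 to 164 CPM in the other 10. H2AFZ, H2AFY2 and H3F3B overlapped the other 10. How many of all genes are highest or lowest in these 2 libraries was not counted.

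**Figure D2:**
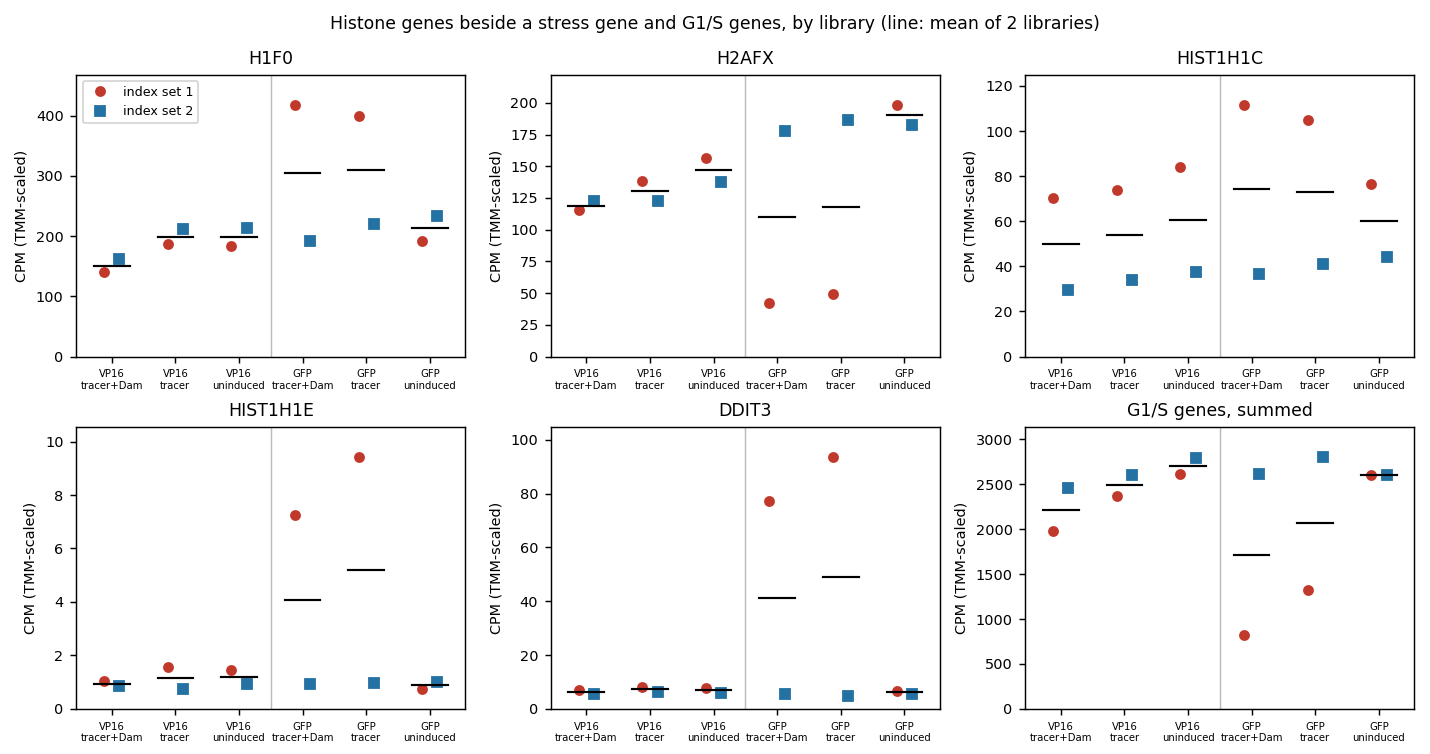
TMM-scaled CPM of H1F0, H2AFX, HIST1H1C, HIST1H1E, DDIT3 and the sum of 16 G1/S genes in each library, with index set 1 as circles and index set 2 as squares and a line at the mean of 2 libraries. DDIT3 is at 77.4 and 93.6 CPM in the GFP_tracer_Dam and GFP_tracer libraries of index set 1. There H1F0, HIST1H1C and HIST1H1E are highest and H2AFX lowest.

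H2AFX (GRCh37, chromosome 11, 118964564 to 118966177) had the widest range of the members above 10 CPM, 4.68-fold from the lowest to the highest library. It had 115 and 123 CPM in VP16_tracer_Dam, 138 and 122 CPM in VP16_tracer and 156 and 138 CPM in VP16_uninduced. In the GFP clone it had 42.5 CPM in index set 1 and 178 CPM in index set 2 of GFP_tracer_Dam, 49.1 and 187 CPM in GFP_tracer, and 199 and 182 CPM in GFP_uninduced. The 2 lowest values are those of the libraries that stood apart, and the other 4 GFP libraries lay above all 6 VP16 libraries. How many of all genes separate the clones in such a way was not counted, here or for the members below. In index set 1 GFP_tracer differed from GFP_uninduced by -2.01 on the log2 scale, and in index set 2 by 0.04. The 2 sets together gave -0.69 ± 0.67 (SE, edgeR adjusted p = 0.999). The ratio of H1F0 to H2AFX in CPM was 9.85 and 8.13 in the GFP_tracer_Dam and GFP_tracer libraries of index set 1 and 0.969 to 1.73 in the other 10.

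Between the clones, over the 3 conditions, H2AFX differed by -0.04 ± 0.38 with all 12 libraries (SE, edgeR adjusted p = 0.966). The index sets went opposite ways, with 0.86 in set 1 and -0.52 in set 2. Without the GFP_tracer_Dam and GFP_tracer libraries of index set 1 the difference was -0.51 ± 0.07 (SE, edgeR adjusted p = 0.00683), so H2AFX was then lower in the VP16 clone. Over all alternatives for this comparison the adjusted p ran from 7.68e-07 to 1. In the uninduced cells alone it was -0.37 ± 0.66 (SE, edgeR adjusted p = 1), with -0.34 and -0.40 in index sets 1 and 2. That SE pools the spread of all groups. Index set 1 minus set 2 was 0.12 in GFP_uninduced and 0.18 in VP16_uninduced, against -2.06 in GFP_tracer_Dam and -1.93 in GFP_tracer (log2).

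H2AFZ (GRCh37, chromosome 4, 100869243 to 100871545) had 258 and 304 CPM in VP16_tracer_Dam, 274 and 309 CPM in VP16_tracer and 301 and 314 CPM in VP16_uninduced. It had 233 and 384 CPM in GFP_tracer_Dam, 264 and 405 CPM in GFP_tracer and 372 and 393 CPM in GFP_uninduced. As for H2AFX, 4 GFP libraries lay above all 6 VP16 libraries and of the 2 that stood apart 1 lay below the VP16 range and 1 near its low end. Between the clones H2AFZ differed by -0.22 ± 0.15 with all libraries (SE, edgeR adjusted p = 0.419), with -0.03 for index set 1 and -0.35 for set 2. With the index set as a block H2AFZ was at -0.20 ± 0.10 (SE, edgeR adjusted p = 0.188). Without the 2 libraries it differed by -0.43 ± 0.07 (SE, edgeR adjusted p = 0.0132), and over the alternatives the adjusted p ran from 1.9e-06 to 0.695.

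Its paralog H2AFV (GRCh37, chromosome 7, 44866390 to 44887682) had 121 and 159 CPM in VP16_tracer_Dam, 129.5 and 162 CPM in VP16_tracer and 129 and 164 CPM in VP16_uninduced. In the GFP clone it had 75.4 and 150.4 CPM in GFP_tracer_Dam, 88.2 and 148 CPM in GFP_tracer and 121 and 152 CPM in GFP_uninduced. The clones overlapped and differed by 0.24 ± 0.20 (SE, edgeR adjusted p = 0.522), or by -0.02 ± 0.13 without the 2 libraries (SE). With the index set as a block and all 12 libraries the difference was 0.27 ± 0.10 (SE, edgeR adjusted p = 0.0946). As a share of H2AFV and H2AFZ together, in CPM per kb, H2AFV made up 17.2% to 20.3% in the 6 VP16 libraries and 13.6% to 16.0% in the 6 GFP libraries. The shares of the clones did not overlap, and within each clone index set 1 lay below index set 2. This ratio was chosen after its values were seen and was given no test.

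**Figure D3:**
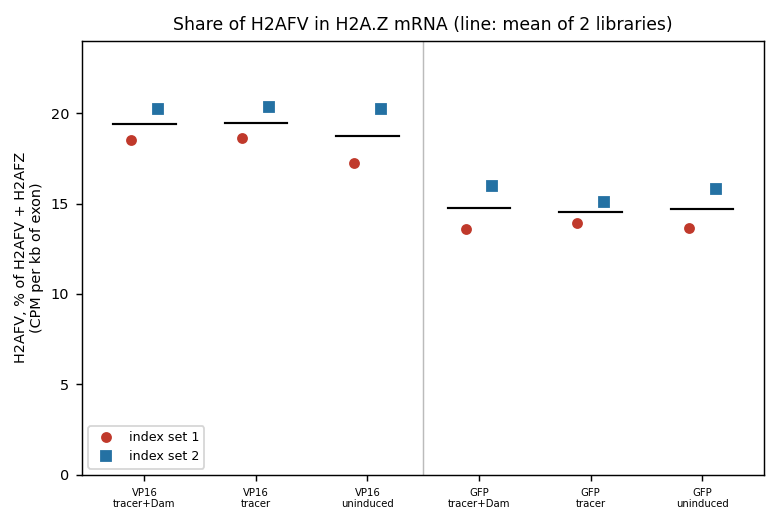
H2AFV as a percentage of H2AFV plus H2AFZ, both in CPM per kb of exon, in each library by group, with index set 1 as circles and index set 2 as squares and a line at the mean of 2 libraries. The 6 VP16 libraries lie at 17.2% to 20.3% and the 6 GFP libraries at 13.6% to 16.0%.

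H2AFY (GRCh37, chromosome 5, 134669590 to 134735604), the main macroH2A message, varied little between conditions. It had 238 and 273 CPM in VP16_tracer_Dam, 247 and 278 CPM in VP16_tracer and 248 and 284 CPM in VP16_uninduced. It had 206 and 288 CPM in GFP_tracer_Dam, 213 and 283 CPM in GFP_tracer and 242 and 286 CPM in GFP_uninduced. In each group the library of index set 1 was the lower, and the groups overlapped. The 2 lowest values, 206 and 213 CPM, were those of the libraries that stood apart. The clones differed by 0.05 ± 0.12 (SE, edgeR adjusted p = 0.842), or by 0.06 ± 0.06 with the index set as a block (SE, edgeR adjusted p = 0.494).

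H2AFY2 (GRCh37, chromosome 10, 71812552 to 71872032) was near the limit of detection and differed most between the clones. It had 0.289 and 0.177 CPM in VP16_tracer_Dam, 0.283 and 0.133 CPM in VP16_tracer and 0.272 and 0.319 CPM in VP16_uninduced. It had 1.02 and 1.31 CPM in GFP_tracer_Dam, 0.981 and 1.39 CPM in GFP_tracer and 0.666 and 1.35 CPM in GFP_uninduced. All 6 VP16 libraries lay below all 6 GFP libraries, from 32 counts in all in the VP16 clone and 155 in the GFP clone. Over the 3 conditions the fitted log2 difference was -2.18 ± 0.30 (SE), with -1.38 for index set 1 and -2.32 for set 2. The gene passed the filter on low counts only through the GFP libraries, in which it is high, and the fit to the VP16 libraries alone dropped it. Its difference between the clones is therefore given as a description.

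H3F3B (GRCh37, chromosome 17, 73772517 to 73775860) ran the other way, at a smaller size. It had 275 and 274 CPM in VP16_tracer_Dam, 309 and 292 CPM in VP16_tracer and 326 and 299 CPM in VP16_uninduced. It had 261 and 234 CPM in GFP_tracer_Dam, 268 and 266 CPM in GFP_tracer and 267 and 245 CPM in GFP_uninduced. All 6 VP16 libraries lay above all 6 GFP libraries, a separation whose share among all genes was not counted. The 2 that stood apart, at 261 and 268 CPM, were close to the other GFP libraries. As for H1F0 and H1FX, the VP16_tracer_Dam pair lay below the other VP16 libraries. Between the clones the value was 0.20 ± 0.06 (log2, SE, edgeR adjusted p = 0.0891), with 0.19 for index set 1 and 0.22 for set 2. With the index set as a block it passed, at 0.20 ± 0.04 (SE, edgeR adjusted p = 0.0141), and it also passed by DESeq2 (adjusted p = 0.0231). Over the alternatives the adjusted p ran from 0.000644 to 0.421. H3F3A (GRCh37, chromosome 1, 226249552 to 226259702) had 3.80 to 6.42 CPM in the VP16 clone and 3.53 to 7.05 CPM in the GFP clone, with 72 to 177 counts a library, and the clones differed by 0.03 ± 0.22 (SE, edgeR adjusted p = 0.962).

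The comparison of the clones over the 3 conditions called 1 of the 9 genes, where 7.64% of the 17262 genes tested passed in either direction, 2.62% higher and 5.01% lower. That gene was H2AFY2, whose place in the test came from its high group, so nothing is read from the count. The other 8 did not pass, and H1F0 among them was chosen on libraries of this comparison. With the index-set block H3F3B was also called, as higher, where 20.9% of genes passed, 9.03% higher. Without the GFP_tracer_Dam and GFP_tracer libraries of index set 1 H2AFX and H2AFZ were called beside H2AFY2, as lower in the VP16 clone, where 10.9% of genes passed and 6.84% were lower. In the uninduced cells 0 of 9 passed by edgeR and by DESeq2 (H1F0 as a description), with 2 at an unadjusted p under 0.05. Of all genes 0.278% passed by edgeR, 0.0753% higher. The block also called 0, where 1.89% of genes passed, 0.475% higher and 1.42% lower. Summed fibroblast-like markers were at 7033 to 8382 CPM in the VP16 libraries and 4625 to 6964 CPM in the GFP libraries, and their part in these values was not tested. With the block and without those libraries, H2AFX (-0.39 ± 0.06) and H2AFZ (-0.33 ± 0.05) were lower and H3F3B (0.27 ± 0.05) higher in uninduced cells (SE, edgeR adjusted p = 0.000698, 0.000481 and 0.00127), where 21.0% of genes passed.

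**Figure D4:**
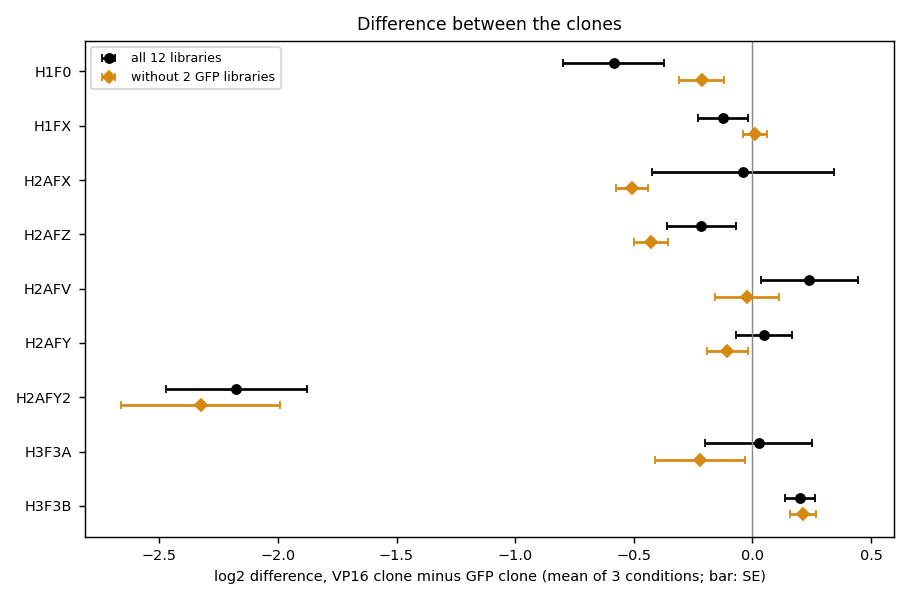
Log2 difference of each gene between the VP16 clone and the GFP clone, as the mean of 3 conditions, with all 12 libraries as circles and without the GFP_tracer_Dam and GFP_tracer libraries of index set 1 as diamonds; bars are SE. H2AFY2 lies at -2.18 and -2.33, while H2AFX lies at -0.04 with all libraries and at -0.51 without the 2.

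Removal of doxycycline was tested in each clone for the 8 members other than H1F0, which was chosen on tracer libraries of both clones. With all 12 libraries edgeR called 0 of 8 in the VP16 clone and 0 of 8 in the GFP clone, where 0% of all genes passed in either. DESeq2 and the index-set block also called 0 members. By edgeR 0 members had an unadjusted p under 0.05, against 72 genes (0.417%) in the VP16 clone and 125 (0.724%) in the GFP clone. Without any difference a far larger share would be under 0.05, so this fit was conservative. Its 0 calls do not show that a response was absent. In the VP16 clone the log2 differences of the 8 members other than H2AFY2 lay between -0.17 (H2AFX) and 0.10 (H3F3A), and H2AFY2 was at -0.51 ± 0.58 (SE). The fit to the 6 VP16 libraries with the block called 139 genes, 0.861% of those tested, and 0 of the members it kept beside H1F0. H2AFX came nearest, at -0.16 ± 0.06 (SE, edgeR adjusted p = 0.208), with -0.18 and -0.17 in index sets 1 and 2. In the GFP clone the values of H2AFX, H2AFZ and H2AFV were -0.69, -0.19 and -0.21 with all libraries and -0.02, 0.09 and 0.13 without the 2 libraries that stood apart. The difference between the clones in this response called 0 of the 8 members other than H1F0 and 0% of genes.

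The addition of Shield1, which stabilises Dam-LaminB1, was tested in the same way for the 8 members other than H1F0. Shield1, the fusion it stabilises and the tracer's binding to methylated DNA came together in these cells, and their effects cannot be told apart. In the VP16 clone edgeR called 0 of 8, where 0% of genes passed, and DESeq2 and the block over 12 libraries also called 0. At an unadjusted p under 0.05 edgeR had 0 of these members and 53 genes (0.307%), so this fit was conservative too. In the fit to the 6 VP16 libraries with the block, 13 genes passed, 0.0806% of those tested. The 7 members kept beside H1F0, which was chosen on this contrast, did not pass. H3F3B, at -0.13 ± 0.04, and H2AFX, at -0.13 ± 0.06, came nearest after H1FX (SE, edgeR adjusted p = 0.267 and 0.472). In the GFP clone the 8 lay between -0.15 and -0.01 and 0 passed, where 0% of genes passed. There 80 genes (0.463%) had an unadjusted p under 0.05. The difference between the clones in this response also called 0 members and 0% of genes.

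Each group holds 1 library of each index set, so the sets could be compared across all groups. With group and index set in the fit, 3 of the 8 members other than H1F0 were lower in index set 1, against 28.2% of all genes called and 12.6% lower. H2AFV was at -0.52 ± 0.10, H2AFY at -0.28 ± 0.06 and H2AFZ at -0.31 ± 0.10 on the log2 scale (SE, edgeR adjusted p = 0.00793, 0.00905 and 0.0479). All 3 were lower in index set 1 in 6 of 6 groups. H2AFZ missed the threshold with each library left out in turn (adjusted p = 0.0538 to 0.123) and with RLE factors (0.0509), while H2AFV and H2AFY passed in every alternative run.

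Without the 2 libraries that stood apart, H2AFV (-0.35 ± 0.04), H2AFY (-0.21 ± 0.03) and H2AFZ (-0.14 ± 0.04) stayed lower (log2, SE). H1F0 was at -0.23 ± 0.03 (SE), given as a description because it was chosen on libraries of this comparison. H1F0 was lower in index set 1 in the other 4 groups, at -0.28 to -0.18, and higher in the 2 groups of those libraries, at 0.85 and 1.13. HIST1H1C ran against these, higher in index set 1 in 6 of 6 groups, at 1.22 ± 0.10 (SE, edgeR adjusted p = 0.000314). H1FX and H3F3B differed by 0.15 ± 0.09 and 0.08 ± 0.04 and did not pass.

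**Figure D5:**
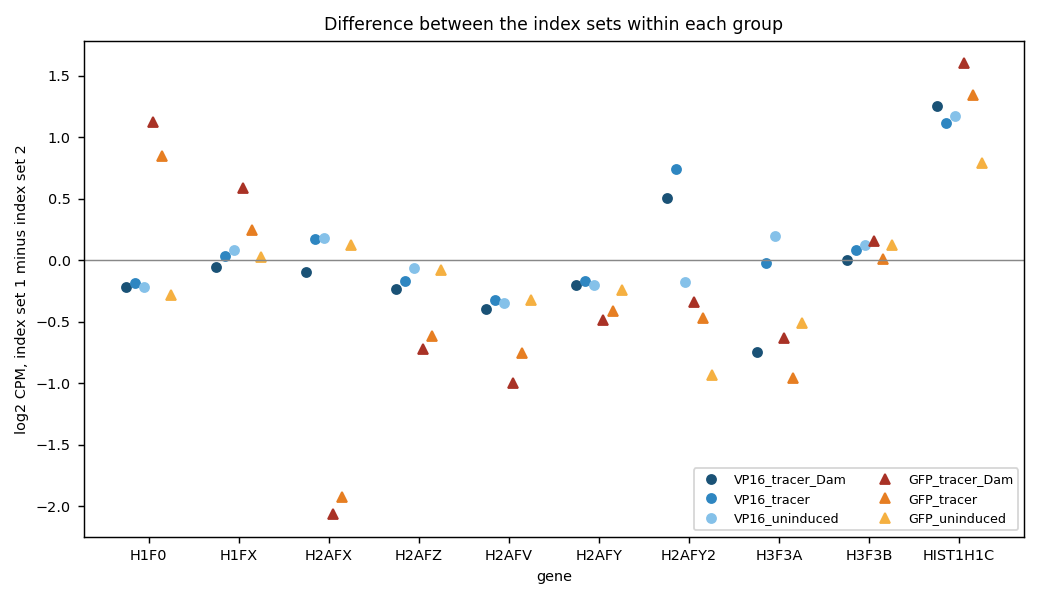
Log2 CPM of index set 1 minus index set 2 within each of the 6 groups, for the 9 genes and HIST1H1C; circles are VP16 groups and triangles GFP groups. H2AFZ, H2AFV and H2AFY lie below 0 in every group, HIST1H1C lies above 0 in every group, and H2AFX lies between -2.06 and -1.93 in GFP_tracer_Dam and GFP_tracer.

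Genes that place, move or read these histones were counted from lists, to be read against the 7.64% of all genes called between the clones over the 3 conditions, or the 20.9% called with the index-set block. Of 12 genes of H2A.Z deposition and removal, 1 was lower in the VP16 clone, the remodeller INO80 at -0.31 ± 0.07 (SE, edgeR adjusted p = 0.0343), which is near that share. RUVBL1, an ATPase of these complexes, was at -0.20 ± 0.07 (SE, edgeR adjusted p = 0.109). With the block RUVBL1 also passed as lower (edgeR adjusted p = 0.037) and EP400 passed as higher, at 0.22 ± 0.05 (SE, edgeR adjusted p = 0.0249). Of 8 genes of H3.3 deposition 0 passed, and DEK, the most abundant, was at 0.00 ± 0.12 (SE). With the block ATRX passed as lower, at -0.31 ± 0.06 (SE, edgeR adjusted p = 0.00679).

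Of 11 general histone chaperones 1 was higher in the VP16 clone, NAP1L1, which carries H2A-H2B dimers, at 0.25 ± 0.06 (SE, edgeR adjusted p = 0.0396), with NPM1 next at 0.19 ± 0.08 (SE, edgeR adjusted p = 0.224). With the block SSRP1 also passed, as lower, at -0.26 ± 0.05 (SE, edgeR adjusted p = 0.0081). Of 10 HMG proteins, which share linker DNA with H1, 2 were higher with and without the block: HMGA2 at 0.40 ± 0.06 and HMGB3 at 1.13 ± 0.21 (SE, edgeR adjusted p = 0.00737 and 0.0158). Of the 5 kinases and readers of H2A.X 0 passed, and PRKDC, the most abundant, was at 0.07 ± 0.25 (SE). With the block the kinase ATM passed as lower, at -0.36 ± 0.04 (SE, edgeR adjusted p = 0.00164). Of the other linker and variant genes 0 passed, and with the block HIST1H1C passed as lower, at -0.32 ± 0.10 (SE, edgeR adjusted p = 0.0499). The list medians were 0.05 for H2A.Z deposition, 0.03 for H3.3 deposition, 0.23 for chaperones, 0.01 for HMG proteins and 0.07 for H2A.X kinases and readers, against 0.00 for all genes. Of 16 G1/S genes 0 passed with or without the block, and their median of 0.27 was 0.72 in index set 1, which holds the 2 GFP libraries with low G1/S genes, and -0.03 in index set 2.

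Between the index sets these lists had more calls, again beside 28.2% of all genes. All 5 H2A.X kinases and readers were lower in index set 1, among them the kinases PRKDC at -0.71 ± 0.04 and ATM at -0.52 ± 0.04 (SE, edgeR adjusted p = 0.00012 and 0.000378). Of the 10 HMG proteins 5 were lower, with HMGN1 at -0.49 ± 0.07 and HMGB2 at -0.75 ± 0.15 (SE, edgeR adjusted p = 0.00253 and 0.0088). Of 8 H3.3 deposition genes 4 were lower, with ATRX at -0.55 ± 0.06 (SE, edgeR adjusted p = 0.000641) and DEK at -0.29 ± 0.07 (edgeR adjusted p = 0.0161). Of 12 H2A.Z genes 3 were lower and 1 higher, with EP400 at -0.36 ± 0.05 and ACTL6A at -0.28 ± 0.06 (SE, edgeR adjusted p = 0.00302 and 0.0132). Of 11 chaperones 3 were lower, with the FACT subunits SSRP1 at -0.32 ± 0.05 and SUPT16H at -0.29 ± 0.05 (SE, edgeR adjusted p = 0.00278 and 0.00684). Of 16 G1/S genes 3 were lower. The list medians ran from -0.55 (G1/S) to -0.08 (H2A.Z deposition), against 0.01 for all genes. In the tracer and Dam-LaminB1 comparisons with all 12 libraries 0 genes of these lists passed in either clone.

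Over the 12 libraries the log2 CPM of H1F0 had r = 0.85 with H1FX and r = -0.76 with H2AFX, and without the 2 libraries that stood apart r was 0.53 and 0.58. These are descriptions over libraries that share clone, condition and index set. Among 9624 genes with a mean of at least 10 CPM, the most like H1F0 over 12 libraries were ORAOV1, CIRBP (a cold-induced RNA-binding protein), TNC (tenascin C, a matrix glycoprotein), CECR7 and COA5 (a cytochrome oxidase assembly factor), with r = 0.97 each. Without the 2 libraries they ranked 23 to 110, and ERF, GBE1, CHRM3, MCM5 and TMEM135 came first, with r from 0.93 to 0.95. The closest pair of members was H2AFV with H2AFY, at r = 0.96 over 12 libraries and 0.92 over 10. H2AFX with H2AFZ had 0.81 and 0.87.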

How the data were processed

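Raw counts of reads for each of 36502 genes, with symbols and GRCh37 positions, are what the authors deposited. Per the submitters' processing notes, TopHat 1.4.0, Bowtie 0.12.7, HTSeq and the build GRCh37 were used. How HTSeq treated strand and overlaps, and which version it was, is not given in the sources used here. Libraries held 18774905 to 24827396 counts in total.

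Rows were matched to the 9 members by symbol. Genes passing edgeR's filterByExpr (17262) were scaled by TMM and tested with a robust quasi-likelihood fit of 6 group coefficients to 12 libraries (edgeR 4.0.16, R 4.3.3; 6 residual degrees of freedom). The SE is the log2 change divided by the square root of F; log2 CPM used a prior count of 2. DESeq2 1.42.0, RLE factors, no filter, an index-set block, single clones and leaving out libraries were alternatives. Leaving out the 2 GFP libraries together with the block was added after seeing the data.

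Members, gene lists and tests were chosen with earlier results of these data known. Genes other than members were named as the 2 list genes with the smallest p in a comparison where any passed, otherwise the most abundant, and as the 5 most like H1F0; list genes called only with the block, HIST1H1C, HIST1H1E, H2AFJ and CENPA were named after their values were seen. Deviations from group means correlated within an index set at 0.415 to 0.858 over 15 pairs of groups, so the sets, read from the reused index sequences in the titles, pair the libraries. Exon lengths are from GENCODE 29 and promoters from RefSeq (GRCh38.p14). Scripts were tested on simulated data.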

Additional observations from a re-analysis of the deposited data

How the results depend on the processing

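Counts of calls depended on the index-set replicate block and on the GFP_tracer_Dam and GFP_tracer libraries of index set 1. Between the clones over the 3 conditions, 1 member (H2AFY2, kept by the filter only through the GFP libraries) and 1318 genes were called. The replicate block gave 2 and 3609, DESeq2 2 and 2092, leaving out the 2 libraries 3 members, and doing so with the block 5 members (H1F0 among them) and 5855 genes. Leaving out 1 library gave 1 to 2 members and 543 to 2221 genes (H1F0 being the added member, without GFP_tracer_Dam replicate 2). H1F0 was chosen on libraries of these comparisons, so nothing is read from its calls. In uninduced cells 48 genes were called, against 220 with no filter, 327 with the block, 267 by DESeq2, 129 without the 2 libraries, 3685 without them and with the block (4 members), and 1 to 5 with 1 library left out. The fit to 6 VP16 libraries with the block gave 139 genes for the tracer, and 13 genes for Dam-LaminB1, against 0 with all 12 libraries; 1 of the 13 was H1F0, a member chosen on this contrast. Without the 2 libraries and with the block each tracer and Dam-LaminB1 comparison within a clone, and the difference between clones for Dam-LaminB1, had 1 gene (for VP16 with Dam-LaminB1 again H1F0). Leaving out 1 library gave 0 to 1 genes for the tracer and for Dam-LaminB1 in the GFP clone. Between index sets it gave 2 to 3 members and 3327 to 3995 genes, against 3 and 4869. The H1F0 difference between index sets turned to -0.23 without the 2 libraries, against 0.18 with them. The cause of these changes was not tested. Of 1042 alternative values of single members 945 were counted as the same. A called value then kept its call and sign. An uncalled value stayed uncalled within 1 SE of the main value, whatever its sign. Of the rest, 17 gained a call with the same sign, 13 lost one and 1 gained a call with the sign reversed. The other 66 were uncalled and moved by more than 1 SE, so changes of sign without a call were not counted. With 2 libraries a group, 3 to 34 counts of H2AFY2 and 72 to 177 of H3F3A limit what can be shown for these genes.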
